A study of Mus musculus with 24 samples.

Results

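The RNA of 7 genes that make, break down or sense steroid hormones was followed in mouse kidney: the enzyme genes Cyp7b1, Hsd17b2, Hsd17b11, Srd5a1, Akr1c21 and Akr1c18, and the receptor gene Esr1. They are the rows of a table of 56748 gene identifiers whose identifiers map to these symbols, and all 7 were found. Males had more RNA of 6 of the 7 genes than females, from 1.77-fold for Akr1c21 to 88.8-fold for Cyp7b1 in the inactive period, and less of Akr1c18. All 7 passed the test for sex in both periods, as did 60.6% of all genes tested in the active and 55.7% in the inactive period. Between the periods 2 of the 7 passed in females, Srd5a1 and Akr1c21, and 1 in males, Hsd17b11, beside 15% and 15.4% of all genes tested.

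Kidneys of female and male mice were taken in the middle of the active or the inactive period, which gives 4 groups, one for each sex in each period, with 6 libraries in each. The period is the only treatment the labels name, and the sources used here give no strain, age, genotype or feeding. Total RNA was selected for poly A tails and sequenced. Nothing in the labels says that each library is a separate animal, so p-values measure the spread between these libraries, which may in part be technical.

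Steroid hormones act by binding receptors in the cell nucleus that then switch genes on or off, and the kidney is a target of androgens, estrogens, progesterone and corticosteroids. How much hormone reaches a receptor depends on enzymes in the same cells. Reductases turn testosterone into the stronger androgen dihydrotestosterone, and dehydrogenases and reductases of the Hsd17b and Akr1c families interconvert active and less active forms. The kidney of the mouse is known for many genes that differ between the sexes, most of them in the proximal tubule.

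Values are the authors' normalized counts, which are gene counts divided by 1 size factor per library. Libraries held 31 to 39.3 M recovered reads. Folds are ratios of group means, log2 folds come from a limma fit of log2(normalized count + 1) over all 24 libraries and 17333 genes with a mean of at least 10, and a gene is called at an adjusted p under 0.05 (Benjamini-Hochberg over all genes tested). All 7 genes passed that filter. The first principal component of all genes, with 49.6% of the variance, parted the sexes, and the next, with 7.39%, the periods. No library lay on the side of another group.

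The stretches of 250 bases before the RefSeq start of 3 of the genes are shown first, because these genes carry the comparisons that follow: Akr1c21 and Akr1c18 are relatives on chromosome 13 with opposite sex differences, and Akr1c21 and Srd5a1 are the 2 genes called lower in active females. Sequences are from RefSeq (GRCm38.p6), read 5′ to 3′ on the strand of the gene, at chr13:4573825-4574074 on the plus strand for Akr1c21, chr13:4150647-4150896 on the minus strand for Akr1c18 and chr13:69611464-69611713 on the minus strand for Srd5a1. Capitals mark a motif found on either strand.
Akr1c21: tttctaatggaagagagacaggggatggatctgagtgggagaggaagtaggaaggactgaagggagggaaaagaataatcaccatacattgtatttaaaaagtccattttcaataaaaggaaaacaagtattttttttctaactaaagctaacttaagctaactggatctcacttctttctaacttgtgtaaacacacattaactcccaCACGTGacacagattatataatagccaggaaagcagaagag
Akr1c18: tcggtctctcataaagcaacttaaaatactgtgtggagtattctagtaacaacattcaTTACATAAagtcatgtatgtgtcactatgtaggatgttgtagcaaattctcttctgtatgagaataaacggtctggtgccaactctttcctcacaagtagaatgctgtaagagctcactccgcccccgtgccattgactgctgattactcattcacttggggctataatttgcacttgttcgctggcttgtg
Srd5a1: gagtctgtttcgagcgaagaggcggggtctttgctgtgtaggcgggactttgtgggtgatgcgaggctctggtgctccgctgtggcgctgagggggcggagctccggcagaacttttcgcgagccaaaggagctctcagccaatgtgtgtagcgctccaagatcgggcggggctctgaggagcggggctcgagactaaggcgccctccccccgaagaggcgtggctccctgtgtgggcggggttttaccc
The capitals in Akr1c21 are CACGTG, the E-box bound by clock activators, at 41 to 36 bases before the start. Those in Akr1c18 are TTACATAA, which is the D-box TTATGTAA read on the other strand, at 192 to 185 bases before the start. Among 32817 promoter windows of this length 6.02% hold CACGTG and 0.817% hold TTATGTAA on either strand.

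Of the 7 genes 5 had an entry, with 6 windows in all since Esr1 has 2. In these windows 4 more motifs were looked for on both strands. They are the steroid receptor half-site AGAACA (in 16.1% of all windows), the full palindromic site built from it (0.00914%), the palindromic estrogen response element (0.064%) and the nuclear receptor half-site AGGTCA (14% of all windows). None of them occurs in the windows of Akr1c21, Akr1c18, Srd5a1, Hsd17b11 or Esr1. The windows of Srd5a1, Hsd17b11 and Esr1 hold none of the 6 motifs. The bases just after the RefSeq start of Srd5a1 were not found in a GENCODE M21 transcript of that gene, as they were for the other 5 windows, so its window may not lie at the start used in that annotation. The share of G and C was 36.4% in Akr1c21 and 41.6% in Akr1c18, against 64.8% in Srd5a1.

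**Figure D1:**
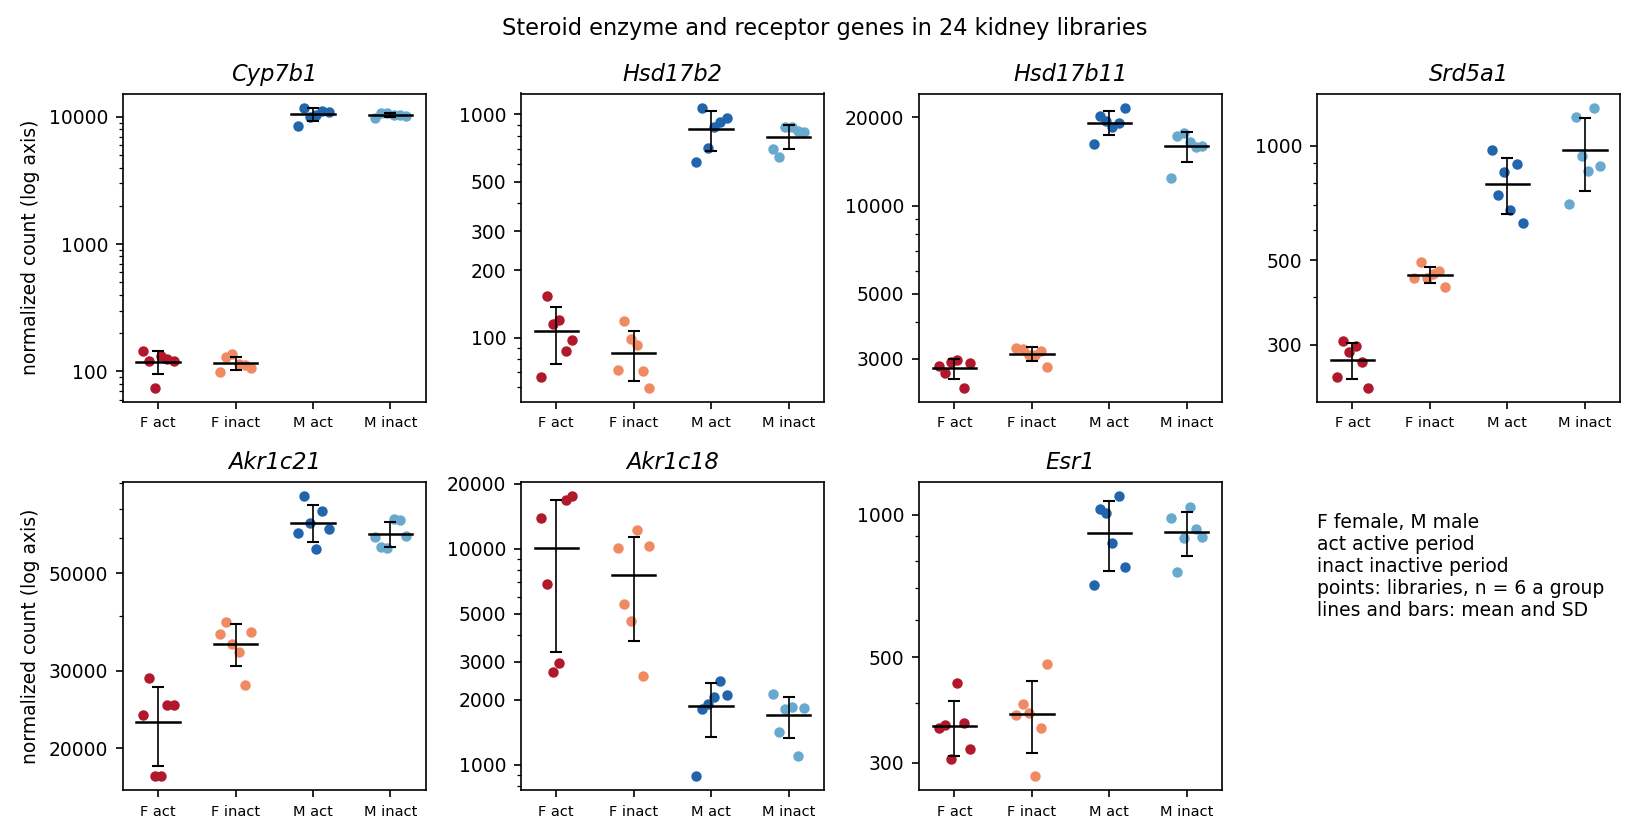
Normalized counts of the 7 genes in each of 24 libraries, on log axes that differ between panels. Points are libraries, 6 in each group, and lines and bars are the mean and SD. In every panel the male and female points of a period stay apart, with males lower for Akr1c18 alone, and Srd5a1 of active and inactive females stays apart as well.

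Between the sexes, all 7 genes were called in the active period, 6 higher and 1 lower in males, and all 7 again in the inactive period in the same directions. These counts stand against a wide background, since 60.6% of all genes tested were called for sex in the active period and 55.7% in the inactive period. Higher in males were 30.1% and 27.9% of all genes tested, lower 30.5% and 27.8%. In both periods the male and female libraries did not overlap for any of the 7 genes, which held for 36.3% of all genes tested in the active and 32.3% in the inactive period. The median absolute log2 fold of the 7 was 2.12 in active and 2.0 in inactive kidneys, and that of all genes tested 0.37 and 0.33. The 7 genes were chosen with earlier results of these data known, so the size of their folds may follow from that choice.

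Cyp7b1 encodes a hydroxylase of oxysterols that also acts on steroids such as dehydroepiandrosterone. Its normalized counts in active females ran from 74.6 to 145 with a median of 123, and in inactive females from 98.9 to 136 with a median of 114. In active males they ran from 8430 to 11839 with a median of 10633, and in inactive males from 9807 to 10712 with a median of 10331. Every male library thus held many times the level of any female library, while the periods overlapped within each sex. The mean was 87.3-fold higher in males in the active period (10442 ± 1195 against 120 ± 23.9, SD, n = 6 each), a log2 fold of 6.46 ± 0.11 (SE, limma adjusted p = 1.42e-25). In the inactive period it was 88.8-fold higher (log2 fold 6.47 ± 0.11, adjusted p = 1.69e-25). Among all genes tested, Cyp7b1 held rank 27 by size of the sex fold in the active and rank 22 in the inactive period. Sex took 99.7% of its variance across the 24 libraries.

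Cyp7b1 did not pass the test for the period in either sex. The log2 fold of active over inactive was 0.02 in females, with a 95% interval of -0.21 to 0.25 (limma adjusted p = 0.942), and 0.01 in males, with an interval of -0.22 to 0.23 (adjusted p = 0.974). These intervals are narrow beside the sex difference. Without the active female library at 74.6, the value in females is 0.15 (adjusted p = 0.234).

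Hsd17b2 encodes a dehydrogenase that oxidizes estradiol and testosterone to their weaker ketone forms. Normalized counts ran from 66.5 to 154 with a median of 106 in active females and from 59.7 to 118 with a median of 82.3 in inactive females. In males they ran from 612 to 1074 with a median of 902 in the active and from 642 to 877 with a median of 839 in the inactive period. The sexes lay far apart in both periods, and the periods overlapped within each sex. Males were 8.07-fold higher in the active period (log2 fold 3.02 ± 0.17, limma adjusted p = 2.16e-14) and 9.33-fold higher in the inactive period (3.23 ± 0.17, adjusted p = 6.48e-15). For the period, the log2 fold was 0.31 in females (interval -0.05 to 0.66, adjusted p = 0.261) and 0.10 in males (interval -0.26 to 0.45, adjusted p = 0.758), neither past the threshold.

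Hsd17b11 encodes a relative that oxidizes androgen metabolites and sits on lipid droplets. Its normalized counts ran from 2394 to 2985 with a median of 2872 in active females and from 2820 to 3269 with a median of 3152 in inactive females. In males they ran from 16229.9 to 21585 with a median of 19241 in the active and from 12376 to 17712 with a median of 16227 in the inactive period. Here the sexes did not overlap, and the periods overlapped in both sexes, with the active libraries tending lower in females and higher in males. Males were 6.87-fold higher in the active period (log2 fold 2.78 ± 0.07, limma adjusted p = 1.28e-23) and 5.11-fold higher in the inactive period (2.34 ± 0.07, adjusted p = 1.11e-21).

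For the reductases, Srd5a1 turns testosterone into dihydrotestosterone. Its normalized counts ran from 231 to 307 with a median of 279 in active females and from 427 to 494 with a median of 456 in inactive females. In males they ran from 627 to 973 with a median of 798 in the active and from 704 to 1262 with a median of 913 in the inactive period. The female groups stayed apart from each other and from both male groups, and the male groups overlapped. Males were 2.91-fold higher in the active period (log2 fold 1.53 ± 0.11, limma adjusted p = 2.15e-12) and 2.12-fold higher in the inactive period (1.06 ± 0.11, adjusted p = 5.40e-09). Of the exon bases of Srd5a1, 16.4% also lie in the model gene Gm17108 on the same strand, which had a mean of 2.15 normalized counts, so a small part of its reads may have been counted elsewhere or dropped.

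Akr1c21 encodes a reductase of keto groups on androgens and other steroids that is abundant in mouse kidney. Its normalized counts ran from 17308 to 28961 with a median of 24418 in active females and from 27912 to 38691 with a median of 35468 in inactive females. In males they ran from 56661 to 74778 with a median of 64008 in the active and from 56848 to 66354 with a median of 60495 in the inactive period. All male libraries were above all female libraries, and the 2 female groups overlapped in a narrow range. Males were 2.84-fold higher in the active period (log2 fold 1.53 ± 0.11, limma adjusted p = 9.35e-12) and 1.77-fold higher in the inactive period (0.83 ± 0.11, adjusted p = 4.04e-07).

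Akr1c18 encodes a reductase that inactivates progesterone, and it was the exception among the 7 genes. Its normalized counts ran from 2684 to 17592 with a median of 10396 in active females and from 2581 to 12179.7 with a median of 7833 in inactive females. In males they ran from 887 to 2434 with a median of 1989.7 in the active and from 1105 to 2142 with a median of 1824 in the inactive period. The lowest female library of each period lay just above the highest male library of that period. The male mean was 5.42-fold lower in the active period (log2 fold -2.12 ± 0.47, limma adjusted p = 5.49e-04) and 4.46-fold lower in the inactive period (-2.0 ± 0.47, adjusted p = 0.00111). No part of the period comparison passed, with log2 folds of 0.23 in females (interval -0.74 to 1.21, adjusted p = 0.809) and 0.11 in males (interval -0.87 to 1.08, adjusted p = 0.905).

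Libraries of 1 group differed more in Akr1c18 than in the other 6 genes in both female groups and in active males. Its coefficient of variation was 67.1% in active and 50.4% in inactive females, and 28.1% and 21.7% in active and inactive males, where Srd5a1 had 21.9% in the latter. On the log2 scale the SD in active females was 1.24, wider than in 99.2% of all genes tested, and in inactive females 0.86, wider than in 97.3%. In active males it was 0.52, at the percentile 84.0, and in inactive males 0.34, at 72.1. The spread within groups made up 34.1% of its variance over all libraries, against 8.17% or less for each of the other 6 genes.

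In active females, the 6 libraries in accession order had 13878, 6914, 2684, 2959, 16787 and 17592 normalized counts of Akr1c18. The third and the fourth are the low ones, and the same 2 had the lowest counts of Akr1c21, 17324 and 17308, with at least 23786 in the other libraries of the group. In inactive females the fifth library was lowest for both genes, at 2581 for Akr1c18 and 27912 for Akr1c21. The summed level of 4 adipocyte markers was 565 and 1314 in the low libraries of active females and 40.9 to 437 in the others of that group. It was 207 in the low library of inactive females, inside the 68.4 to 900.1 of the others, and its part in these levels was not tested. In bulk RNA, fewer cells of a type and less RNA per cell cannot be told apart.

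Esr1 encodes estrogen receptor alpha, which binds estradiol and acts on gene expression. Its normalized counts ran from 305 to 443 with a median of 357 in active females and from 281 to 483 with a median of 380.4 in inactive females. In males they ran from 712 to 1096 with a median of 939 in the active and from 756 to 1041 with a median of 915 in the inactive period. The receptor gene was higher in every male library than in any female library, and the periods overlapped fully within each sex. Males were 2.56-fold higher in the active period (log2 fold 1.35 ± 0.11, limma adjusted p = 2.33e-11) and 2.42-fold higher in the inactive period (adjusted p = 8.89e-11). For the period the log2 folds were -0.08 in females (interval -0.31 to 0.15, adjusted p = 0.722) and -0.01 in males (interval -0.25 to 0.22, adjusted p = 0.950).

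**Figure D2:**
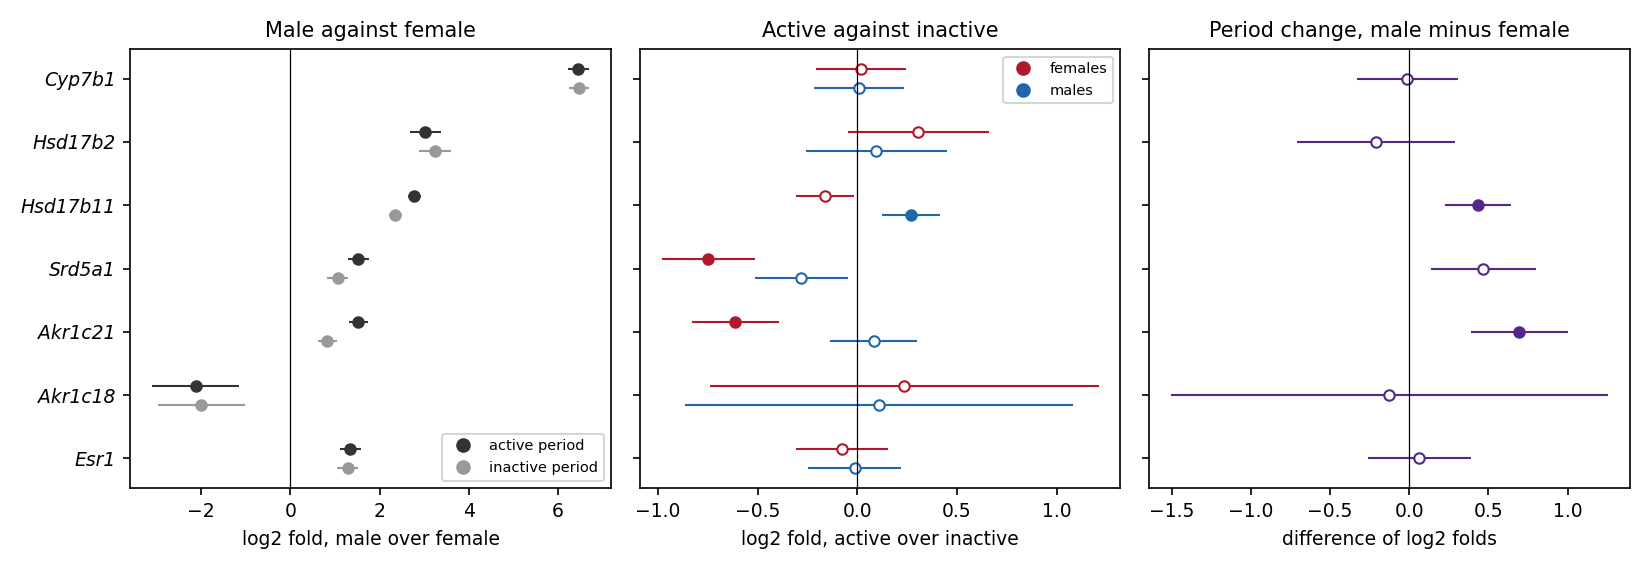
Log2 folds of the 7 genes with 95% intervals, for male over female in each period, active over inactive in each sex, and the male minus the female period change. Filled points passed the test at an adjusted p under 0.05 and open points did not. All 14 sex folds are filled, 3 of the 14 period folds are, and Hsd17b11 and Akr1c21 are filled in the panel of differences.

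Between the periods, 2 of the 7 genes were called in females, both lower in the active period, and 1 was called in males, higher in the active period. Of all genes tested 15% were called in females and 15.4% in males, so 1 or 2 of 7 genes is near the background. In females 7.97% of all genes tested were higher and 6.98% lower in the active period, and in males 8.43% were higher and 6.95% lower. The female groups did not overlap for Srd5a1, which held for 7.83% of all genes tested, and the male groups overlapped for all 7 genes, with no overlap for 4.29% of all genes tested.

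Srd5a1 fell by 0.75 ± 0.11 on the log2 scale in active females, with a mean of 274 ± 29.6 against 459 ± 22.7 in inactive females (SD, n = 6 each), 1.68-fold lower (limma adjusted p = 2.71e-05). In males the mean was 795 ± 134 in the active and 974 ± 213 in the inactive period, a log2 fold of -0.28 ± 0.11 that did not pass (adjusted p = 0.0927). Males therefore had the lower mean in the active period too, inside a wider spread. Without active male replicate 1 the male value is -0.34 (adjusted p = 0.0362), and without inactive male replicate 1 it is -0.37 (adjusted p = 0.0188), both past the threshold. Other libraries moved it the other way, to -0.20 without inactive male replicate 5 (adjusted p = 0.245) and -0.22 without active male replicate 6 (adjusted p = 0.218). Of 33 alternatives 2 passed. The difference between the sexes in the period change was 0.47 ± 0.16 and did not pass (adjusted p = 0.106).

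Akr1c21 fell by 0.61 ± 0.11 on the log2 scale in active females, from 34586 ± 3792 to 22917 ± 4674, 1.51-fold lower (limma adjusted p = 2.33e-04). In males it was 65009 ± 6288 in the active and 61253 ± 4077 in the inactive period, a log2 fold of 0.08 with an interval of -0.13 to 0.30 (adjusted p = 0.643). Here the sexes differed in the period change by 0.70 ± 0.15 (adjusted p = 0.0145). The sex difference of Akr1c21 was accordingly larger in the active than in the inactive period. Leaving out the active female library 3 or 4, the low ones, gave -0.54 in females each time, still past the threshold (adjusted p = 4.46e-04 and 4.68e-04).

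Hsd17b11 rose 1.2-fold in active males, from 15934 ± 1893 to 19161 ± 1797, a log2 fold of 0.27 ± 0.07 (limma adjusted p = 0.0108). In females it was 2789 ± 219 in the active and 3119 ± 163 in the inactive period, a log2 fold of -0.16 ± 0.07 that did not pass (adjusted p = 0.129, and 0.0458 when the female libraries are fitted alone). The sexes differed in the period change by 0.43 ± 0.10 (adjusted p = 0.0186). Without the lowest inactive male library the male value is 0.20 and still passes (adjusted p = 0.0269). In the difference of the period changes, 2 of 7 genes were called, both with the male value above the female one, where 2.71% of all genes tested were called, 1.41% in that direction and 1.3% in the other.

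The variance over the 24 libraries was divided among sex, period, their interaction and the spread within groups. Sex took the largest share for all 7 genes, from 65.4% for Akr1c18 to 99.7% for Cyp7b1. The period took 12.4% for Srd5a1 and 4.12% for Akr1c21, and under 0.5% for each of the other 5 genes. The interaction took 7.10% for Akr1c21, 2.54% for Srd5a1 and 0.704% for Hsd17b11. For Akr1c21 and Hsd17b11 the interaction took more than the period.

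Levels of different genes were compared per length of exon, which is that of all annotated exons of a gene together and may exceed that of the transcripts present. In normalized counts per kb, Akr1c21 was the highest of the 7 in every group, with means of 15257 in active and 23026 in inactive females and of 43281 in active and 40781 in inactive males. Esr1, a receptor gene, was the lowest by mean in every group, at 26.2, 27.8, 67 and 67.2. Its place rests on an exon length of 13661 bases. Not divided by length, its mean in active females was 358, above Srd5a1 at 274, Cyp7b1 at 120 and Hsd17b2 at 107. Between them the order depended on sex. In females Akr1c18 came next, at 8398 and 6272, and its range overlapped that of Akr1c21 in active females. Then came Hsd17b11 at 854 and 955, and Srd5a1 at 94.1 and 158. Cyp7b1, at 55.2 and 53.8, and Hsd17b2, at 55.4 and 44.4, overlapped in both female groups. Hsd17b2 also overlapped Srd5a1 in active and Esr1 in inactive females. In males Hsd17b11, at 5869 and 4880, and Cyp7b1, at 4821 and 4771, came next with overlapping ranges. They stood above Akr1c18, at 1551 and 1406. Hsd17b2 at 447 and 414 and Srd5a1 at 273 and 335 followed, again with overlap. Cyp7b1 thus moved from the lower end of the order in females to near its top in males, and Akr1c18 fell from the next to the highest place to the middle.

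**Figure D3:**
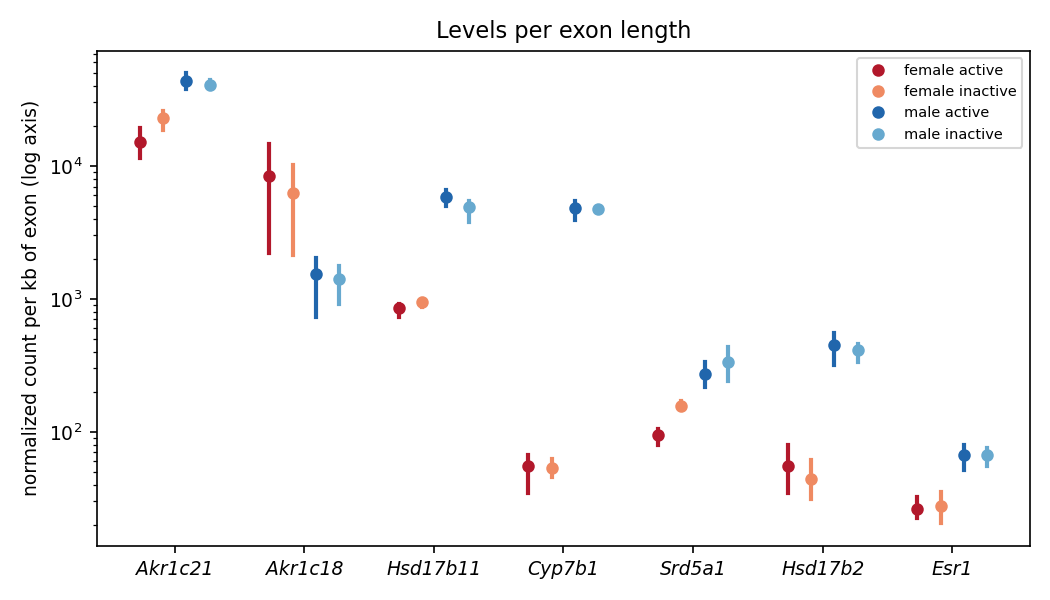
Normalized counts per kb of exon of the 7 genes on a log axis. Points are group means and lines reach from the lowest to the highest of 6 libraries. Akr1c21 is highest in every group, and the place of Cyp7b1 in the order differs between females and males.

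Single libraries did not move all 7 genes together. In active males, replicate 1 was the lowest of its group for 5 of the 7 genes (Cyp7b1, Hsd17b2, Hsd17b11, Akr1c18 and Esr1) and the highest for Srd5a1. In active females, replicate 3 was the lowest for 3 genes (Cyp7b1, Akr1c18 and Esr1). No other library was the lowest of its group for more than 3 of the 7 genes.

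The genes whose pattern over the 24 libraries was nearest to each of the 7 were taken by the root mean square difference of their centred log2 values, among 12492 genes with a symbol and a mean of at least 50. For Cyp7b1 these were Cyp4a12a, at 0.59, Acsm3, at 0.61, and Lipo2, at 0.68, where Cyp7b1 itself deviates from its own mean by 3.24. Hsd17b11 had the closest neighbour of all, Adh1, at 0.13, followed by Galns and Amacr. For Akr1c21 they were Cmbl, at 0.15, Bco2 and Cda, and for Esr1 they included Htatip2 and Phyh, both at 0.17. Hsd17b2 had Serpinf2, at 0.34, Chst11 and Fmo5, and Srd5a1 had Zmynd10, at 0.24, Cadm1 and Dnajc12. For Akr1c18 the nearest were Adamts8, at 0.50, Dio1, at 0.57, and Elovl2, at 0.59, against its own deviation of 1.27. Dio1 had its lowest counts in the same female libraries as Akr1c18, with 1221 and 1094 in the third and the fourth of active females and 1010 in the fifth of inactive females. Elovl2 was lowest in the same libraries, with 2509 and 2714 in active and 2299 in the fifth of inactive females, where the third had 2309. Adamts8 was lowest in the third and the second of active females, at 41.7 and 71.2, with 74.8 in the fourth. In inactive females Adamts8 was lowest in the fifth, at 66.3. Since these genes were picked for their nearness over these same libraries, this is no separate support. The nearness is a description, and the genes share libraries, depth and the sex difference.

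Around the 7 genes, 77 others of steroid handling were listed in 7 groups, 76 were in the table and 54 passed the filter. In the active period 23 were higher and 20 lower in males, and in the inactive period 22 were higher and 18 lower, where 60.6% and 55.7% of all genes tested were called. For the period 7 were higher and 6 lower in active females, and 7 higher and 2 lower in active males. Over all genes tested, 7.97% were higher and 6.98% lower in active females, 8.43% and 6.95% in active males, and 30.1% higher and 30.5% lower in males in the active period. The counts of the single lists are to be read against these shares. The median log2 sex fold of the 54 in the active period was 0.12, beside 1.53 for the 7 genes and -0.05 for all genes tested. In absolute size the median of the 54 was 0.45, beside 0.37 for all genes tested. The 7 genes and the lists were chosen with earlier results of these data known, so these medians may follow from that choice.

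Of 6 other Hsd17b genes tested, 3 were higher and 1 was lower in males in the active period. Hsd17b14, a relative of Hsd17b2 and Hsd17b11, went the other way from them, at 101 ± 11.4 in active males against 352 ± 69.8 in active females (log2 fold -1.78, adjusted p = 1.34e-12). Hsd17b12, which elongates fatty acids, and Hsd17b4, an enzyme of peroxisomes, were higher in males by 0.59 (adjusted p = 2.70e-12) and 0.45 (adjusted p = 1.27e-08). Both differences are small beside those of Hsd17b2 and Hsd17b11.

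Of 9 other reductases and Akr1c genes, 5 were higher and 3 lower in males in the active period. Srd5a2, which does the same reaction as Srd5a1, was higher too, at 515 ± 104 in active males against 129 ± 16.7 in active females (log2 fold 1.97, limma adjusted p = 5.46e-11). In the Akr1c family, Akr1c19 and Akr1c20 were lower in males as Akr1c18 was, by log2 folds of -1.19 (adjusted p = 2.06e-16) and -2.98 (adjusted p = 1.84e-11). Akr1c14 and Akr1c6, named here after their values were seen, were higher in males as Akr1c21 was, Akr1c14 at 18898 ± 1395 in active males against 6695 ± 3297 in active females (log2 fold 1.65, adjusted p = 2.61e-05) and Akr1c6 by 2.71 from low counts, 18.4 ± 5.85 in active males (adjusted p = 1.25e-04). For the period, Akr1c13 fell in active females, by a log2 fold of -0.48 (adjusted p = 0.0114), as Akr1c21 did, while Akr1c19 rose in both sexes, by 0.22 in females (adjusted p = 0.0134) and 0.32 in males (adjusted p = 8.00e-04). Akr1c13 shares 24.2% of its stretches of 50 bases with Akr1c12, so its counts are uncertain. Akr1c21 shares none with another gene, and Akr1c18 0.581%.

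Of 4 other sterol hydroxylases tested beside Cyp7b1, 1 was higher and 1 lower in males, and none came near its sex fold. Cyp27a1, which hydroxylates cholesterol in mitochondria, was higher by 0.28 (limma adjusted p = 0.00128), a call lost when libraries are scaled to equal totals. Cyp39a1, another oxysterol hydroxylase, was lower by a log2 fold of -0.28 (adjusted p = 0.00485). Cyp7a1 and Hsd3b7 are listed at 0 in all libraries, and 50.7% of the stretches of 50 bases in Hsd3b7 recur in the model gene Gm49388. For the period in females, Cyp27a1 was called at 0.22 (adjusted p = 0.0391) and Cyp46a1 at -0.63 (adjusted p = 0.0474), and these calls were lost in 7 and 15 of 24 fits that each leave out 1 library.

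Of 8 genes of steroid synthesis tested, 7 were higher and 1 lower in males in the active period. Hsd3b3, a dehydrogenase that forms the keto group of active steroids, was at 3635 ± 323 in active males and 1393 ± 156 in active females (log2 fold 1.39, limma adjusted p = 4.15e-15). It also rose in active males, by 0.39 (adjusted p = 0.00114). The genes of 3 electron donors of cytochrome P450 enzymes, Por for those of the endoplasmic reticulum such as Cyp7b1 and Fdxr and Fdx1 for those of mitochondria, fell in active females, by log2 folds of -0.47 (adjusted p = 0.00199), -0.44 (adjusted p = 0.00287) and -0.19 (adjusted p = 0.0270). The call for Fdx1 was lost in 4 of 24 fits without 1 library. Fdx1 and Tspo, a protein of the outer mitochondrial membrane, were the 2 listed genes with a called difference in the period change, at 0.31 (adjusted p = 0.0432) and 0.44 (adjusted p = 0.0367), lost in 16 and 13 of those fits. These are 2 of the 54 listed genes tested, near the 2.71% of all genes tested that were called for this difference. Cyp11b1 and Cyp11b2 of the adrenal cortex and the aromatase gene Cyp19a1 are listed at 0 in all libraries.

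Of 6 conjugating enzymes tested, 3 were higher and 2 lower in males in the active period. Ugt2b37 and Ugt2b38, which attach glucuronic acid, had log2 folds of 7.72 (limma adjusted p = 1.87e-17) and 4.59 (adjusted p = 3.79e-16), and Ugt2b34 had -1.97 (adjusted p = 5.45e-20). Ugt2b37 is the gene here whose sex fold is above that of Cyp7b1. The Ugt2b genes share 18.3% (Ugt2b37) and 37.4% (Ugt2b38) of their stretches with relatives, so single values are uncertain. The sulfotransferase gene Sult1a1 rose in the active period in both sexes, by 0.35 in females (adjusted p = 0.0145) and 0.58 in males (adjusted p = 1.76e-04).

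Of 13 other receptors tested, 3 were higher and 8 lower in males in the active period, beside 30.1% and 30.5% of all genes tested. Paqr7, a membrane progestin receptor, was higher in males by 2.11 (limma adjusted p = 4.96e-15), and Nr3c2, the mineralocorticoid receptor, was lower by a log2 fold of -0.68 (adjusted p = 7.92e-11). For the period in males, 2 receptors were called higher and 2 lower. Nr3c2 fell, by a log2 fold of -0.32 (adjusted p = 6.80e-04), and Esrra, an orphan receptor related to Esr1, rose by 0.25 (adjusted p = 0.00732). Paqr7, at 0.31 (adjusted p = 0.0410), and Esrrg, at -0.21 (adjusted p = 0.0325), lost their calls in 8 and 5 of 24 fits without 1 library.

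Of 8 coregulators tested, 4 rose in active females and 2 in active males, beside 7.97% and 8.43% of all genes tested. Fkbp4, a cochaperone of steroid receptors, rose in both sexes, from 5872 ± 439.8 to 8438 ± 483 in females (log2 fold 0.52, limma adjusted p = 1.06e-04) and from 7951 ± 799 to 11088 ± 2165 in males (0.46, adjusted p = 7.41e-04). The corepressor genes Ncor1 and Nrip1 rose in active females by 0.30 (adjusted p = 1.88e-05) and 0.40 (adjusted p = 6.41e-04).

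**Figure D4:**
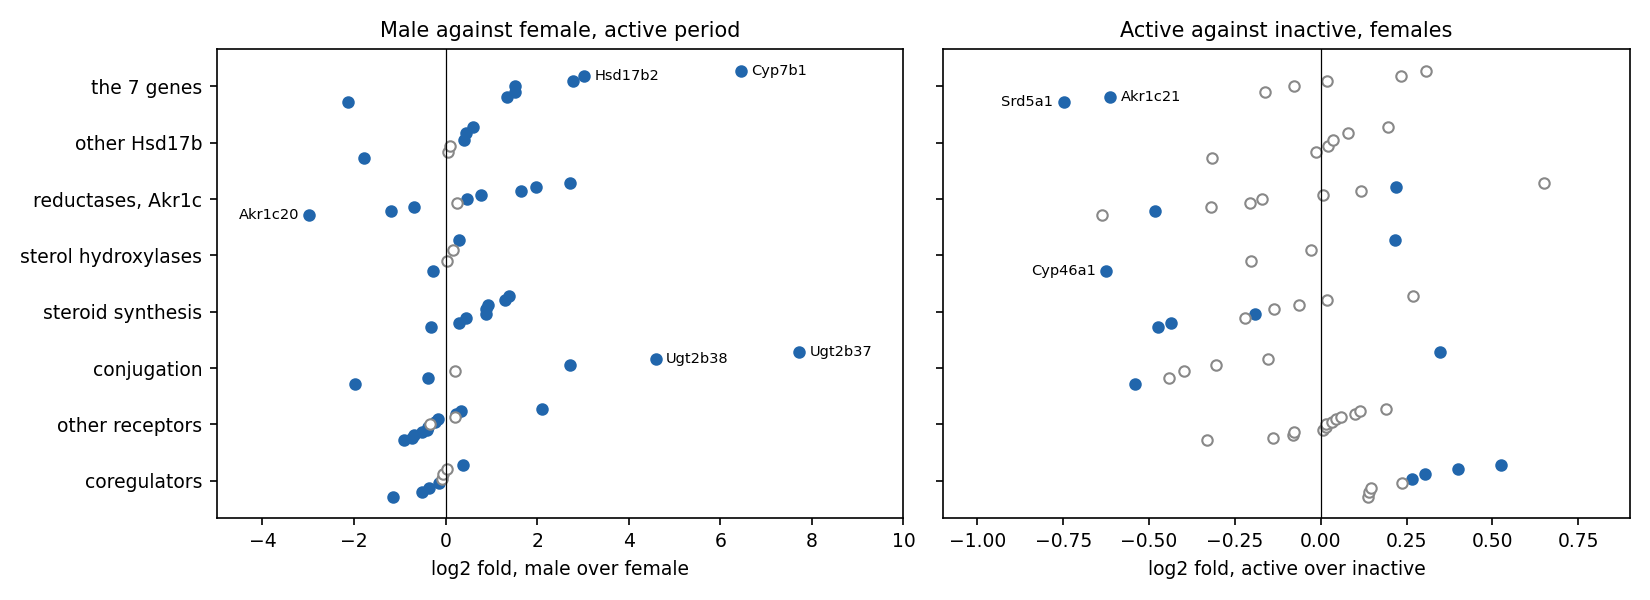
Log2 folds of the 7 genes and of 54 other tested genes in 7 lists, for male over female in the active period and for active over inactive in females. Filled points passed the test at an adjusted p under 0.05, and open points did not. Cyp7b1 stands farthest right among the 7 genes on the left side, and among the 7 genes Srd5a1 and Akr1c21 stand farthest left on the right side.

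Markers of kidney cells were present in all groups, and several moved with sex. The summed level of 4 markers of the last segment of the proximal tubule was 20102 to 31471 in active and 19283 to 27528 in inactive females, and 104116 to 121610.0 in active and 100664 to 130553 in inactive males, with 2 of 4 called higher and 1 lower in active males. The higher sum in males lies mostly in Slc7a13, with means of 58.7 in active females and 48631 in active males, and Atp11a, with 15097 and 60936. Slc22a19 was lower in males, with means of 8377 in active females and 5133 in active males, and Slc5a10 had 1908 and 2058. The sum of 4 markers of the earlier segments of the proximal tubule was 70024 to 99509 and 93571 to 104780.0 in females, and 123028 to 139840.0 and 117452 to 129460.0 in males, with 1 of 4 higher and 3 lower in active males. This sum mostly follows the higher one, Slc34a1, with means of 67082 in active females and 118356 in active males. Slc5a2, Slc5a12 and Slc7a7 were the lower ones. Between the periods 2 of these 4 were lower in active females, Slc34a1 by a log2 fold of -0.24 and Slc7a7 by -0.46, and 2 of 4 were lower in active males, Slc5a12 by -0.36 and Slc7a7 by -0.38. Of all genes tested for the period, 6.98% were lower in active females and 6.95% in active males. Against active females, all 3 podocyte and all 4 endothelial markers were lower in active males, where 30.5% of all genes tested were lower and 30.1% higher. The same held for all 3 markers of the thick ascending limb and all 3 of intercalated cells. Of 3 markers of principal cells, 2 were higher in active males and none was lower. The part of these markers in the sex and period differences of the 7 genes was not tested. For adrenal cortex, a gland beside the kidney that makes steroids, Cyp11b1, Cyp11b2 and Nr5a1 were at 0 in every library, and 6 of its 7 markers summed to 0 to 7.83 in active and 3.91 to 18.5 in inactive females, and to 0 to 12.1 in active and 0 to 6.37 in inactive males. The other one, Star, had means of 199.9 in active females and 160.3 in active males.

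The scale of the libraries bears on the sex differences. The authors' factors put the median log2 sex fold of all genes tested at -0.05 in active and -0.04 in inactive kidneys, and scaling to equal totals moves it to -0.32 in both, with 2635 genes higher and 8822 lower in active males in place of 5219 and 5290. On that scale the sex folds of the 7 genes in the active period were 6.18 for Cyp7b1, 2.75 for Hsd17b2, 2.50 for Hsd17b11, 1.25 for Srd5a1 and Akr1c21, -2.40 for Akr1c18 and 1.07 for Esr1. In the inactive period this scale took the smallest sex fold, the log2 fold of Akr1c21, from 0.83 to 0.55. It took that of Srd5a1 from 1.06 to 0.78 and that of Akr1c18 from -2.0 to -2.28. All 7 kept their direction and their call in both periods.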

How the data were processed

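Poly A RNA of 24 mouse kidney libraries, 6 per group, was measured, and groups were taken from the labels. The signal in the deposited table is gene counts that the authors divided by 1 size factor per library, per the labels' processing lists and the values. The submitters' processing notes list the genome build GRCm39 and, as tools, DESeq2 1.28.1, featureCounts, Subread 2.0.6 and Trim Galore 0.6.10. For strand setting and annotation release, the sources used here give nothing. Of 56748 identifiers, 52073 matched a symbol in GENCODE M21 (GRCm38) and carry 99.2% of the signal. That annotation gave symbols and exon lengths only, apart from the overlaps and shared stretches of 50 bases between gene models. Whole reads were recovered from the step between values, all whole within 0.05. They served the read depths, the TMM factors, edgeR, DESeq2 and the simulated data, and not the reported limma fit.

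The fit used limma 3.58.1 in R 4.3.3 on log2(normalized count + 1), with a trended, robust prior and 20 residual degrees of freedom, for genes with a mean of at least 10. There were 5 contrasts, each adjusted by Benjamini-Hochberg at 0.05 over 17333 genes. Counting error, at 31 to 39.3 M reads per library, is part of every SD. The method was tested on simulated data. Alternatives were pseudocounts of 0.5 and 5, no filter, TMM, upper quartile and equal totals scaling, only the 2 groups compared, edgeR 4.0.16, DESeq2 1.42.0, each library left out, and the title number as a block.

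Named genes were the 7 genes, up to 3 called genes with the smallest p per list and contrast, and the 3 nearest genes of each of the 7. Genes listed at 0 and markers were named besides, and a few genes this rule picks are left out of the text. The 7 genes and the lists were chosen with earlier results of these data known.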

Additional observations from a re-analysis of the deposited data

Results flagged for a closer look

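Of 28 sets of 6 libraries (7 genes in 4 groups), 2 had a library whose gap to its neighbour exceeded 0.625 of the range, where chance gives about 1 in 20 sets. For Cyp7b1 the lowest active female library was at 74.6 normalized counts and the next at 119.9, a gap of 0.645 of the range. For Hsd17b11 the lowest inactive male library was at 12376 and the next at 15780.1, a gap of 0.638.

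The period change differed between males and females for Akr1c21, by 0.70 on the log2 scale (limma adjusted p = 0.0145), and for Hsd17b11, by 0.43 (adjusted p = 0.0186). Akr1c21 fell in active females, and Hsd17b11 rose in active males. It also differed for Tspo, by 0.44 (adjusted p = 0.0367), and for Fdx1, by 0.31 (adjusted p = 0.0432). The last 2 calls were lost in 13 and 16 of 24 fits without 1 library. They are 2 of 54 listed genes tested, near the 2.71% called among all genes tested.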

How the results depend on the processing

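The 7 genes gave 1169 log2 folds under alternatives. Of these 1166 stayed on the same side of the threshold and in their direction where called, 3 newly passed and none was lost or reversed. Those 3 are Hsd17b11 for the period in females with only the 2 groups compared (-0.16, adjusted p = 0.0458) and Srd5a1 for the period in males without active male replicate 1 (-0.34) or inactive male replicate 1 (-0.37). The interaction of Akr1c21 ranged from 0.62 to 0.77 (adjusted p at most 0.0438) and that of Hsd17b11 from 0.36 to 0.48 (at most 0.0350).

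With each library left out in turn, 1 to 2 of the 7 genes were called for the period in males, 2 to 2 for the period in females and for the interaction, and 7 to 7 for sex in each period. Of the listed genes, 9 to 14 were called for the period in females, 7 to 10 in males, 0 to 3 for the interaction, 40 to 44 for sex in the active and 38 to 41 in the inactive period. For the interaction, 2 listed genes were called in the reported fit, 0 with no filter on low values and 5 with DESeq2. Over all genes, 470 were called for the interaction, 247 with no filter and 937 with DESeq2. Leaving out 1 library moved that count by over 1.5 times for active male replicate 1 (780), active female replicate 4 (276), inactive female replicates 2 (293) and 3 (290) and inactive male replicate 3 (293), so the 2.71% called for the interaction is unsure. For the period in males, 15.4% of all genes were called, and 10.1% with only the 2 groups compared. The cause was not tested.

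Scaling to equal totals turned the split of period calls in females from 1382 higher and 1210 lower to 1019 and 1570, and in males from 1461 and 1204 to 1130 and 1458. For sex in the inactive period it turned 4844 higher and 4818 lower into 2051 and 9054. The upper quartile gave 1199 and 1415, 1181 and 1521, and for sex 4430 and 6200 in the active and 3963 and 5709 in the inactive period.

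Males and females of a period share numbers in their titles. Over 12 such pairs the correlation of deviations ran from -0.10 to 0.12, 1 was over 0.1 and 4 libraries correlated best with their own number, so the numbers do not show pairing. With the number as a block, 7 of the 7 genes were called for sex in each period and 2 for the interaction, with 42, 40 and 2 of the listed genes. No block could be fitted for the period, since the active and the inactive groups share no numbers. Of the 77 listed genes, 23 had no match or a mean under 10 and were not tested, and 5 of these were at 0 in all libraries. The part of depth in this was not tested.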
